A study of Mus musculus with 42 samples.

Results

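The tRNA pool of activated CD4 T cells at 48 h was compared with that of the same kind of cell at rest, using the tRNA-seq libraries of wild-type (WT) mice. The comparison takes 4 of the 42 samples of the series, 2 labelled 0 h and 2 labelled 48 h, and all 242 reference sequences of the deposited tables. Naive CD4 T cells were purified with a kit from spleens of WT mice, whose age the growth protocol gives as 8 weeks, and were cultured in X-VIVO medium. Activation was by plate-bound anti-CD3 (5 µg/ml) with anti-CD28 (2 µg/ml) in 96-well plates, and the 0 h samples carry the same treatment label with a time of 0 h. The small RNA fraction (200 ng, under 200 nt) was deacylated, and the sample titles name treatment with AlkB, a demethylase that removes methyl groups which block reverse transcription. The tRNA-seq labels give no strain and do not say whether the 2 libraries of a time came from separate mice, so tests measure the spread between libraries, which may be technical.

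Transfer RNAs carry amino acids to the ribosome and read the codons of the messenger RNA through their anticodon. Species that share an anticodon are called isoacceptors here, for instance Ser-CGA, where the letters are the anticodon as DNA. Most isoacceptors are served by several gene copies. Species with the same anticodon whose bodies differ at some positions are the isodecoders, numbered after the anticodon (Ser-CGA-3). Initiator methionine tRNA (iMet-CAT) starts every protein, and selenocysteine tRNA (SeC-TCA) reads a UGA codon in the few messages that encode selenoproteins. Naive T cells are small and make little protein, and activation through the antigen receptor and CD28 is known to raise ribosome production, protein synthesis and growth before the cells divide.

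The 8 tRNA-seq libraries, 2 each of 0, 6, 18 and 48 h, held between 67261117 and 92701839 reads. The 242 references comprised 220 tRNAs, 15 small nuclear or nucleolar RNAs (snRNA or snoRNA) and 7 ribosomal RNAs (rRNA). No messenger RNA is among the references, so the cell type could not be checked by markers, and no mitochondrial tRNA is among them. Reads that match several near-identical references cannot be told apart, and how they were assigned is not given in the sources used here. This touches isodecoders, the 45S rRNA precursor with 18S, 28S and 5.8S, Rnu1b1 with Rnu1b2, the 4 Rnu3b references, and n-R5s113 with n-R5s146. Values are reads scaled to the library total (RPM) or percent of tRNA reads. Fold changes are log2, 48 h over 0 h, with their standard error (SE), from edgeR's quasi-likelihood test with Benjamini-Hochberg adjusted p, called under 0.05.

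More of each library lay on tRNA at 48 h. tRNA references took 66.7% and 66.7% of the 2 libraries at 0 h, and 90.2% and 87.2% of those at 48 h. The means differed by 22.01 percentage points, and the groups did not overlap. A two-sided exact permutation test gave p = 0.33, which no result of 2 against 2 libraries can go below. rRNA fell from 20.9% and 21.6% of the library to 6.41% and 8.96%, and snRNA or snoRNA from 12.2% and 11.4% to 3.02% and 3.52%. The libraries of 6 h already held 87.1% and 83.0% tRNA, and those of 18 h held 89.5% and 91.5%, so the composition at 48 h lay close to that of the earlier activated samples. In these bulk libraries of equal RNA input, more tRNA per cell and less of the other small RNAs cannot be told apart, nor can fewer cells of a kind and less RNA in each.

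**Figure D1:**
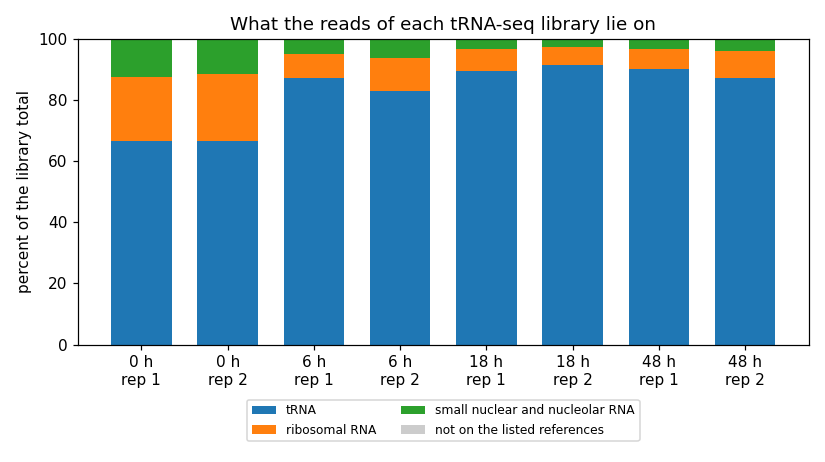
Percent of the library total (y axis) on tRNA, ribosomal RNA and small nuclear or nucleolar RNA in each of the 8 tRNA-seq libraries (x axis, hours after activation and replicate). The 2 libraries of rest hold 66.7% tRNA each, the 6 activated ones between 83.0% and 91.5%.

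Apart from n-R5s136, a 5S rRNA, every reference for small nuclear, nucleolar and ribosomal RNA was called lower at 48 h, and the deepest fall among them was that of a U1 snRNA, a part of the spliceosome. Over all references 190 passed the minimum of 10 RPM and 26 were called lower (13.7%), among them 15 of 15 snRNA or snoRNA and 6 of 7 rRNA references. Rnu1a1, a U1 snRNA that recognises the 5′ splice site, was at 26385 and 24822 RPM at 0 h and at 2134 and 2581 RPM at 48 h, a log2 fold change of -3.44 (SE 0.20, edgeR adjusted p = 4.4e-06). Rnu5g, a U5 snRNA, was at 15404 and 14596 RPM against 2087 and 2868 RPM, a log2 fold change of -2.60 (SE 0.16, edgeR adjusted p = 4.9e-06). Both references were far lower in each 48 h library than in either library of rest. Rnu1b1 fell by 2.27 and its near copy Rnu1b2 by 2.25 on the log2 scale, and the C/D-box snoRNA U3, which processes the rRNA precursor, fell by 1.87 (Rnu3b2) and 1.85 (Rnu3b1). Rnu2-10, a U2 snRNA, fell by 1.64 from 54534 and 49615 RPM. The low references Rnu73b, Rnu11 and Rnu7 fell by 3.25, 1.46 and 0.99.

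The rRNA references fell as well, with a median log2 fold change of -0.76 against -1.84 for snRNA or snoRNA. Rn45s, the rRNA precursor, was at 89195 and 94561 RPM at 0 h and at 18483 and 26470 RPM at 48 h (log2 fold change -2.03, SE 0.21, edgeR adjusted p = 8e-05). Rn18s fell by 1.88 and Rn28s1 by 1.74, and these long rRNAs can enter a fraction under 200 nt only as fragments. The smallest falls among the non-tRNA references were those of transcripts that, like tRNA, are made by RNA polymerase III. This grouping was chosen after the values were seen. U6 snRNA (Rnu6) was at 10745 and 9806 RPM against 5883 and 8268 RPM, a log2 fold change of -0.54. The 5S rRNA references n-R5s113 and n-R5s146 fell by 0.69 each, and n-R5s136 was not called at -0.47 (edgeR adjusted p = 0.14). Rs5-8s1, which belongs to the rRNA precursor and not to this group, held the rRNA median of -0.76, close to the 5S values. A tRNA, SeC-TCA, fell further, with a log2 fold change of -1.21 in RPM. Whether the polymerase bears on the size of a fall was not tested.

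In RPM, most tRNA isoacceptors were higher at 48 h. Of 49 isoacceptors tested, 39 were called higher (79.6%) and 1 lower (2.04%), with a median log2 fold change of 0.41, which moves with the shift of the libraries toward tRNA. To compare tRNAs with each other, the fit was repeated on what is named the tRNA scale, where each library is scaled by its tRNA reads and a TMM factor. That moved the median by -0.45, to -0.04, and left 9 isoacceptors higher (18.4%) and 9 lower (18.4%). Of the 39 called higher in RPM, 18 had a negative and 21 a positive value on the tRNA scale. The unequal changes within the pool are therefore given on both scales below.

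**Figure D2:**
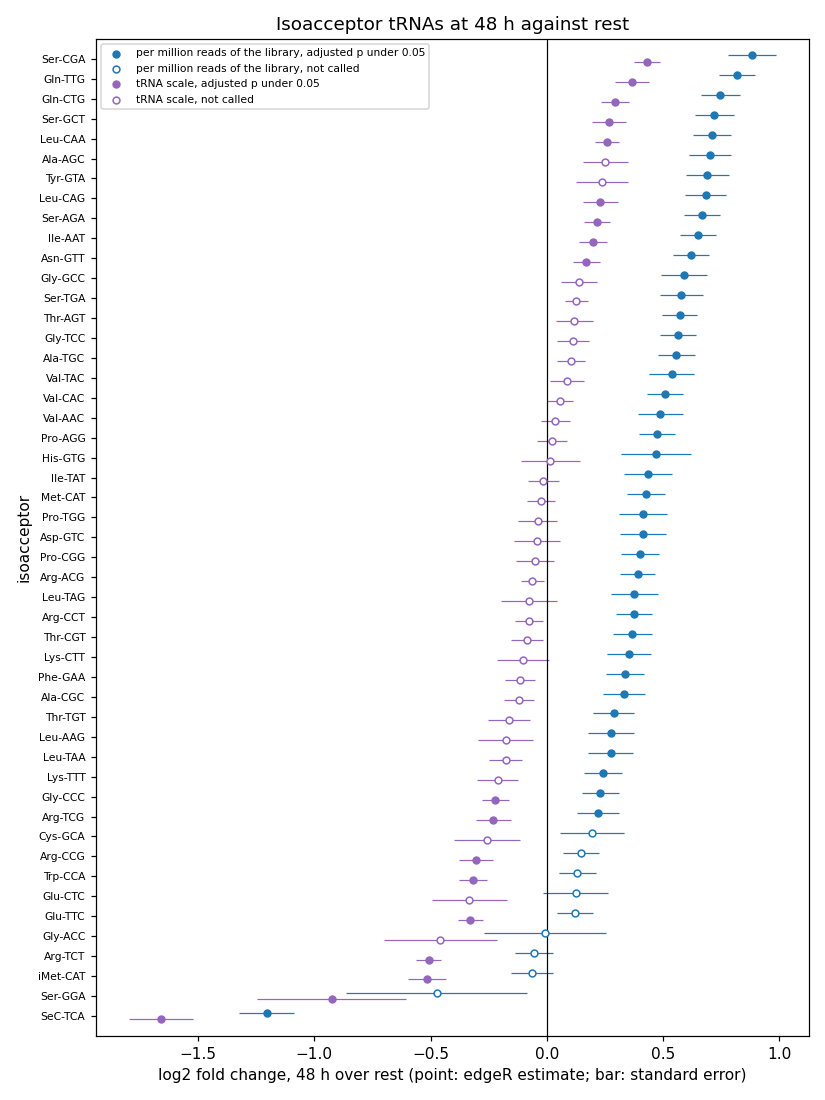
Log2 fold change at 48 h over rest (x axis) for the 49 isoacceptors tested (y axis), in RPM (blue) and on the tRNA scale (purple); points are edgeR estimates, bars standard errors, filled points have an adjusted p under 0.05. In RPM, 39 isoacceptors lie above 0 and are called, while on the tRNA scale 9 are called on each side and 18 of those 39 turn negative.

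Selenocysteine tRNA stood apart as the lowest isoacceptor. SeC-TCA was at 4266 and 3623 RPM at 0 h and at 1681 and 1740 RPM at 48 h. It was the single isoacceptor called lower in RPM, with a log2 fold change of -1.21 (SE 0.12, edgeR adjusted p = 3.4e-11) and of -1.66 on the tRNA scale (SE 0.14, edgeR adjusted p = 4.3e-05). Its part of the tRNA reads went from 0.640% and 0.543% to 0.186% and 0.200%, with 0.389% and 0.478% at 6 h and 0.183% and 0.150% at 18 h. The low level was thus already present in both libraries of 18 h.

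Initiator methionine tRNA lagged behind the pool. iMet-CAT was at 21406 and 25749 RPM at 0 h and at 22530 and 22528 RPM at 48 h, so that the 48 h libraries lay between those of rest (log2 fold change -0.07, SE 0.09, edgeR adjusted p = 0.49). Its share of tRNA reads was 3.21% and 3.86% at 0 h and 2.50% and 2.58% at 48 h, and on the tRNA scale it fell by 0.52 (SE 0.08, edgeR adjusted p = 0.0016). The elongator Met-CAT, which inserts methionine within proteins, was at 1.14% and 1.30% of tRNA reads against 1.21% and 1.25%. It was higher in RPM (log2 fold change 0.43, edgeR adjusted p = 1.8e-05), and on the tRNA scale its value was -0.02 (edgeR adjusted p = 0.73).

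Serine and glutamine tRNAs gained most. Ser-CGA rose from 2365 and 2467 RPM to 4525 and 4380 RPM, a log2 fold change of 0.88 (SE 0.10, edgeR adjusted p = 1.3e-09) and of 0.43 on the tRNA scale (edgeR adjusted p = 0.00049). Its share of tRNA reads was 0.355% and 0.370% at 0 h, stayed between 0.373% and 0.402% at 6 h and 18 h, and was 0.501% and 0.503% at 48 h. Gln-TTG rose from 8218 and 8928 RPM to 14707 and 15521 RPM (log2 fold change 0.82, SE 0.08, edgeR adjusted p = 3.4e-11), and by 0.37 on the tRNA scale. Its share of tRNA reads was 1.23% and 1.34% at 0 h and 1.57% and 1.62% at 6 h. At 18 h it was 2.07% and 1.84%, higher than the 1.63% and 1.78% at 48 h. Gln-CTG went from 2.42% and 2.50% of tRNA reads to 2.96% and 3.24%, with log2 fold changes of 0.75 in RPM and 0.29 on the tRNA scale. At 18 h it was at 3.11% and 3.30%, which overlapped the values of 48 h. The libraries of 0 h and 48 h did not overlap for any of these 3 isoacceptors, as was the case for 91.8% of isoacceptors in RPM.

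Ser-GCT, which reads AGC and AGU codons, rose from 2.91% and 2.81% of tRNA reads to 3.53% and 3.56% (0.72 in RPM, 0.27 on the tRNA scale). Leu-CAA rose from 1.06% and 1.12% to 1.34% and 1.35% (0.71 and 0.26), and Leu-CAG from 2.85% and 2.92% to 3.56% and 3.40% (0.68 and 0.23). On both scales these 3 were called, as were Ser-AGA, Ile-AAT and Asn-GTT with 0.22, 0.20 and 0.17 on the tRNA scale. Asn-GTT lay close to the threshold there (edgeR adjusted p = 0.049). Ala-AGC and Tyr-GTA were called in RPM (0.70 and 0.69) and missed the threshold on the tRNA scale (0.25 and 0.24, edgeR adjusted p = 0.070 and 0.14).

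Several arginine tRNAs, Glu-TTC and Trp-CCA lost ground in the pool. Arg-TCT was at 9287 and 9385 RPM at 0 h and 8770 and 9188 RPM at 48 h, with a log2 fold change of -0.06 (SE 0.08, edgeR adjusted p = 0.51), and its share of tRNA reads went from 1.39% and 1.41% to 0.972% and 1.05%. On the tRNA scale it fell by 0.51 (SE 0.05, edgeR adjusted p = 0.00012). Glu-TTC went from 2.70% and 2.85% of tRNA reads to 2.26% and 2.28%, Trp-CCA from 1.68% and 1.91% to 1.45% and 1.505%, and Arg-CCG from 1.79% and 1.70% to 1.45% and 1.46%. These 3 were not called in RPM (0.12, 0.13 and 0.15) and fell on the tRNA scale by 0.33, 0.32 and 0.31. Arg-TCG and Gly-CCC were called higher in RPM (0.22 and 0.23) and lower on the tRNA scale (-0.23 and -0.22), so that their direction is set by the scale. Ser-GGA, at 12.3 and 14.4 RPM against 9.07 and 10.1 RPM, lay close to the minimum of 10 RPM and was called on the tRNA scale alone (-0.92, edgeR adjusted p = 0.049).

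**Figure D3:**
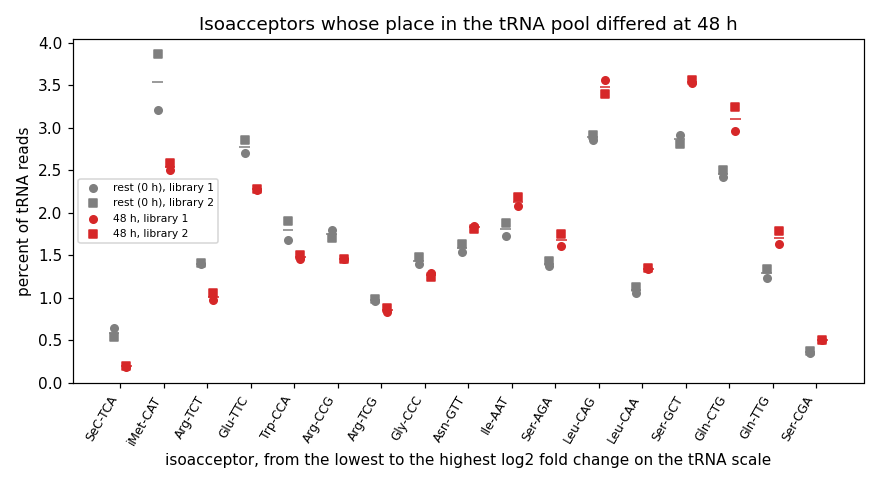
Percent of tRNA reads (y axis) in each library of rest (grey) and 48 h (red), with the mean of 2 libraries as a line, for the 17 isoacceptors called on the tRNA scale with a mean of over 100 RPM (x axis). SeC-TCA goes from 0.640% and 0.543% to 0.186% and 0.200%, and Ser-CGA from 0.355% and 0.370% to 0.501% and 0.503%.

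Other isoacceptors called higher in RPM took a smaller step than the median of 0.41 and were below 0 on the tRNA scale, without a call there. They include Lys-TTT (0.24 and -0.21), Leu-TAA (0.27 and -0.18), Leu-AAG (0.28 and -0.18), Thr-TGT (0.29 and -0.16) and Ala-CGC (0.33 and -0.12). The most abundant isoacceptors were His-GTG, Glu-CTC, Cys-GCA, Pro-TGG, Asp-GTC and Gly-GCC. His-GTG was at 7.38% and 7.11% of tRNA reads at 0 h and at 7.27% and 7.81% at 48 h (0.47 in RPM, edgeR adjusted p = 0.0047, and 0.01 on the tRNA scale). Pro-TGG, Asp-GTC and Gly-GCC rose by 0.41, 0.41 and 0.59 in RPM, and their values on the tRNA scale were -0.04, -0.04 and 0.14 with no call. Glu-CTC and Cys-GCA were not called on either scale, and each had a pair of libraries far apart. Glu-CTC was at 53334 and 38180 RPM at 0 h, on both sides of the 48829 and 50884 RPM at 48 h, and Cys-GCA was at 54728 and 41264 RPM at 48 h, on both sides of 44275 RPM in 1 library of rest.

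The order of abundance within the pool was largely kept. Across the 49 isoacceptors, log2 shares at rest and at 48 h had a Pearson correlation of 0.99, a description over isoacceptors that share their libraries. The 10 most abundant isoacceptors held 45.6% of tRNA reads at 0 h and 45.0% at 48 h, and 9 were in the top 10 at both times. The summed absolute change in share, divided by 2, was 6.29% of tRNA reads between the means of the 2 times. Between the 2 libraries of 0 h it was 4.58%, and between those of 48 h 2.99%. The first value compares means of 2 libraries and the others compare single libraries, which vary more, so they are not like for like. In 31 of 49 isoacceptors (63.3%) the 2 times did not overlap in percent of tRNA reads.

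Summed by amino acid, 17 of 22 groups were higher in RPM (77.3%) and 1, selenocysteine, was lower (4.55%). On the tRNA scale 2 rose (9.09%) and 5 fell (22.7%). Glutamine tRNA went from 3.65% and 3.83% of tRNA reads to 4.59% and 5.02%, with log2 fold changes of 0.77 (edgeR adjusted p = 3.3e-06) and 0.32 on the tRNA scale (edgeR adjusted p = 0.0016). Serine tRNA went from 5.27% in both libraries to 6.35% and 6.53% (0.70 and 0.25, the latter with edgeR adjusted p = 0.0088). Below 0 on the tRNA scale and called were selenocysteine, initiator methionine, Glu (-0.33), Trp (-0.32) and Arg (-0.21), and Arg was called higher in RPM (0.24, edgeR adjusted p = 0.0046). Glu rested on the library pair at 0 h that differed, 10.7% and 8.58% of tRNA reads, against 7.67% and 8.12%. Tyr, Asn, Ile, Ala, Gly, Val, Leu and His were higher in RPM, between 0.69 and 0.47. On the tRNA scale they were between 0.24 and 0.01 with no call. Asn holds the same reads as the isoacceptor Asn-GTT and missed the threshold here (edgeR adjusted p = 0.057). Thr stood at 0.45 and 0.00. Pro, Asp, Met, Phe and Lys were called higher in RPM, between 0.43 and 0.32, and were between -0.02 and -0.13 on the tRNA scale with no call.

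The mix of anticodons within an amino acid was tested by differential usage, which asks whether members of a group changed unequally and does not depend on the library scale. It changed in 5 of 12 amino acids (41.7%): Ser, Arg, Gly, Ala and Leu, with edgeR adjusted p of 4.4e-06, 0.012, 0.015, 0.047 and 0.047. This count depends on few libraries: leaving out any 1 of the 4 left 1 or 2 amino acids, Ser each time, and Gly also without the second library of 48 h. Ser in turn was not called at a minimum of 100 RPM, which removes Ser-GGA. Within arginine, Arg-TCT went from 18.1% and 18.2% to 14.3% and 15.3%, Arg-CCG from 23.3% and 22.01% to 21.4% and 21.1%, Arg-ACG from 24.2% and 24.7% to 26.9% and 27.5%, and Arg-CCT from 21.96% and 22.2% to 25.1% and 23.4%. Arg-TCG was at 12.5% and 12.8% against 12.3% and 12.8%. Within glycine, Gly-CCC went from 20.1% and 20.4% to 16.4% and 16.8% while Gly-GCC went from 53.2% and 53.0% to 55.8% and 56.0% and Gly-TCC from 26.5% and 26.4% to 27.6% and 27.0%.

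Within alanine, Ala-CGC went from 18.7% and 17.5% to 14.8% and 15.3%, while Ala-AGC, at 51.7% and 55.3% against 58.3% and 56.5%, and Ala-TGC, at 29.7% and 27.2% against 26.9% and 28.2%, had libraries farther apart. Ser-CGA was at 6.74% and 7.02% of serine tRNA at 0 h and at 7.90% and 7.70% at 48 h. Ser-TGA moved the other way, from 11.9% and 12.4% to 11.3% and 11.1%. The times overlapped for Ser-GCT, at 55.3% and 53.3% against 55.6% and 54.5%, and for Ser-AGA, at 26.0% and 27.2% against 25.2% and 26.7%. Gln-CTG and Gln-TTG did not change unequally by this test (edgeR adjusted p = 0.72), and neither did Glu-CTC and Glu-TTC (0.99).

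A further rearrangement lay within isoacceptors, among isodecoders with the same anticodon. The mix of references changed in 32 of 42 isoacceptors with at least 2 tested references (76.2%), and in 30 to 32 when any 1 of the 4 libraries was left out. The median range of log2 fold changes between the references of an isoacceptor was 1.71. In 4 isoacceptors (Ala-CGC, Arg-TCG, Arg-TCT and Trp-CCA) references were called in both directions, and 4 isoacceptors changed their mix although their sum was not called. The mix was not called changed in 10, among them iMet-CAT, His-GTG, Glu-CTC, Glu-TTC, Asn-GTT and Ile-AAT.

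In most isoacceptors the leading reference held a smaller share at 48 h. To keep the choice apart from the comparison, the leading reference was taken from the first library of rest and its share was compared between the second library of rest and both libraries of 48 h, an analysis added after the values were seen. It was lower in both 48 h libraries in 30 of 42 isoacceptors, higher in both in 8 (Arg-ACG, Asp-GTC, Gln-TTG, Glu-TTC, Lys-CTT, Met-CAT, Val-AAC and iMet-CAT) and between them in 4. The median share of the leading reference was 77.2% and 76.7% at 0 h, 76.96% and 76.4% at 6 h, 70.1% and 69.6% at 18 h, and 67.8% and 66.6% at 48 h. The median effective number of references, the inverse sum of squared shares, was 1.60 and 1.57 at 0 h and 1.85 and 1.90 at 48 h. The median was thus lower in both libraries of 18 h and near that of rest at 6 h. Single isoacceptors had moved by 6 h, such as Arg-TCG-1, at 63.2% and 63.4% at rest and 55.4% and 51.6% at 6 h, and Ser-CGA-1, at 66.6% and 67.5% against 57.3% and 57.8%.

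**Figure D4:**
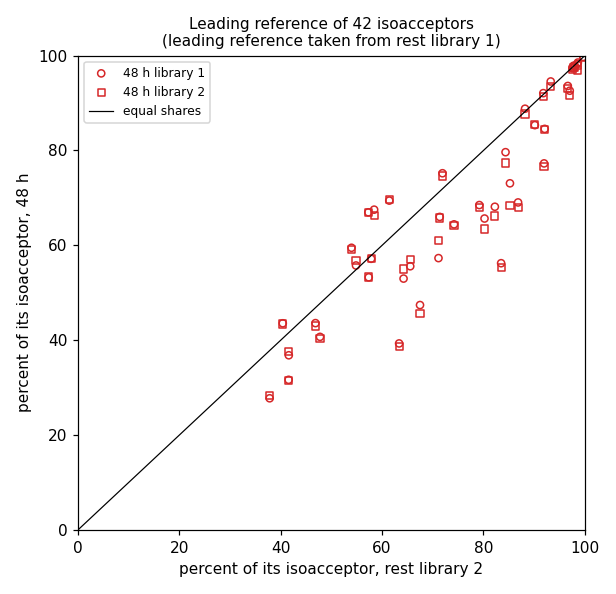
Share of its isoacceptor held by the leading reference in the second library of rest (x axis, percent) and in each library of 48 h (y axis, percent) for 42 isoacceptors; the leading reference was taken from the first library of rest, and the line marks equal shares. In 30 of 42 isoacceptors both 48 h points lie below the line, in 8 both lie above it.

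References with under 10% of their isoacceptor in the first library of rest, called minor here, numbered 83 among the tested. Of these, 63 were called higher in RPM, with a median log2 fold change of 1.11, beside 120 higher and 5 lower of all 168 tRNA references tested with a median of 0.63. Over all 190 tested references 63.2% were called higher. On the tRNA scale, where 34.2% of tested references were called higher and 24.7% lower, 48 minor references were higher and 2 lower (median 0.66). Of the 42 leading references, 26 were called higher and 4 lower in RPM, with a median of 0.33. On the tRNA scale their median was -0.12, with 3 higher and 13 lower. Between them lay 36 intermediate references, of 10% or more without leading, with medians of 0.63 in RPM and 0.18 on the tRNA scale. In RPM 27 of these were called higher and 0 lower, and on the tRNA scale 14 were higher and 8 lower. Share was gained by intermediate references in some isoacceptors and by minor ones in others. The first library of rest, which set these classes, also enters the fold changes. This favours a rise of minor references and a fall of leading ones in the counts and medians above. Since a reference can pass the minimum through 48 h alone, the 80 minor references with at least 10 RPM at rest were also counted, and 60 of them were higher (46 on the tRNA scale). Together the minor references held 2.99% and 3.20% of tRNA reads at 0 h, 3.23% and 3.22% at 6 h, 4.58% and 5.45% at 18 h, and 5.56% and 5.85% at 48 h. They are sparse at rest, at a median of 122 RPM against 9210 RPM for leading references, and reads taken from near-identical neighbours would weigh more on them, which was not tested.

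Ala-CGC and Arg-TCG showed the largest falls of a leading reference. Ala-CGC-2 held 82.5% and 83.5% of Ala-CGC at 0 h and 56.2% and 55.4% at 48 h, and Ala-CGC-1 the rest but a trace, with 17.4% and 16.5% against 43.8% and 44.6%. In RPM, Ala-CGC-1 went from 970.1 and 975.5 to 3293 and 3090, a log2 fold change of 1.71 (SE 0.10, edgeR adjusted p = 4.2e-06), and of 1.26 on the tRNA scale. Ala-CGC-2 went from 4593 and 4942 to 4231 and 3833 RPM, a log2 fold change of -0.24 (SE 0.09, edgeR adjusted p = 0.041). Arg-TCG-1 fell from 63.2% and 63.4% of Arg-TCG to 39.3% and 38.6%, with a log2 fold change of -0.48 (edgeR adjusted p = 0.0071), while Arg-TCG-3 rose from 12.99% and 14.1% to 28.04% and 27.8%.

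In Ser-CGA, the isoacceptor with the highest fold change, all 3 references were higher in RPM, the leading one least so and with a value of -0.10 and no call on the tRNA scale. Ser-CGA-1 went from 66.6% and 67.5% of it to 47.4% and 45.7%, with 1576 and 1665 RPM against 2145 and 2001 RPM (log2 fold change 0.36, SE 0.08, edgeR adjusted p = 0.0054). Ser-CGA-2 went from 743.5 and 757.9 RPM to 2112 and 2100 RPM (log2 fold change 1.49), and Ser-CGA-3 from 45.8 and 44.5 RPM to 268 and 280 RPM (2.60, SE 0.15, edgeR adjusted p = 4.4e-06). On the tRNA scale these rose by 1.04 and 2.15.

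The isoacceptors with the lowest p for a change in mix were Cys-GCA, Thr-AGT, Ala-TGC, Arg-TCT, Gln-CTG and Arg-CCG, with edgeR adjusted p between 6.8e-28 and 2.8e-12. Cysteine tRNA has 56 RefSeq genes with this anticodon in mouse, 48 of them on chromosome 6 (GRCm38), and 11 tested references. Cys-GCA-3 held 71.5% and 71.4% of its reads at 0 h and 66.0% and 65.8% at 48 h. Cys-GCA-1 went from 191 and 197 RPM to 1646 and 1290 RPM, a log2 fold change of 2.92 (SE 0.14, edgeR adjusted p = 2.7e-06), while the sum was not called. Cys-GCA-4, Cys-GCA-4-, Cys-GCA-16, Cys-GCA-17 and Cys-GCA-21 were at 11.6 to 17.6 RPM at rest and at 114 to 189 RPM at 48 h, with log2 fold changes of 3.26 to 3.46. Their values ran close together in each library, and whether they rest on the same reads was not tested.

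Ala-TGC-4 had the highest gain in share among these families. It held 3.72% and 3.79% of Ala-TGC at 0 h and 17.9% and 18.6% at 48 h, with 328 and 349 RPM against 2452 and 2381 RPM (log2 fold change 2.84, SE 0.11, edgeR adjusted p = 2.2e-06). Ala-TGC-2 and Ala-TGC-3, whose values were nearly equal in each library, each went from 47.7% to 47.9% of the isoacceptor to between 40.3% and 40.7%. The remaining tested members, Ala-TGC-1, Ala-TGC-6, Ala-TGC-7 and Ala-TGC-8, were each under 0.5% of the isoacceptor in every library of both times.

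In Arg-TCT, the leading reference itself was lower and the others higher. Arg-TCT-1 was at 7462 and 7527 RPM at 0 h and at 5757 and 5829 RPM at 48 h, a log2 fold change of -0.37 (SE 0.07, edgeR adjusted p = 0.0020) and of -0.82 on the tRNA scale. Arg-TCT-2 rose from 146 and 135 RPM to 473 and 530 RPM, and Arg-TCT-5 from 126 and 127 RPM to 539 and 595 RPM, log2 fold changes of 1.83 and 2.16. Arg-TCT-3 rose from 16.7% and 17.0% of the isoacceptor to 22.8% and 24.3%. The 2 opposite movements leave the sum of Arg-TCT in RPM uncalled.

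In Arg-CCG, Arg-CCG-1 went from 1.71% and 1.85% of the isoacceptor to 8.04% and 9.50% (205 and 210 RPM against 1053 and 1207 RPM, log2 fold change 2.45), and Arg-CCG-2 from 12.8% and 12.9% to 18.9% and 22.1%. Arg-CCG-3 went from 85.5% and 85.2% to 73.1% and 68.4%. In Gln-CTG, Gln-CTG-2 went from 93.0% and 92.1% to 84.5% and 84.4%, while Gln-CTG-1, Gln-CTG-3 and Gln-CTG-4 had log2 fold changes of 2.63, 1.49 and 2.11. In Thr-AGT, Thr-AGT-4 went from 3.65% and 4.27% to 10.6% in both libraries (log2 fold change 1.99), and Thr-AGT-1 and Thr-AGT-3 lost share. The values at 6 h and 18 h lay between rest and 48 h for Arg-CCG-1, Gln-CTG-1 and Thr-AGT-4.

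**Figure D5:**
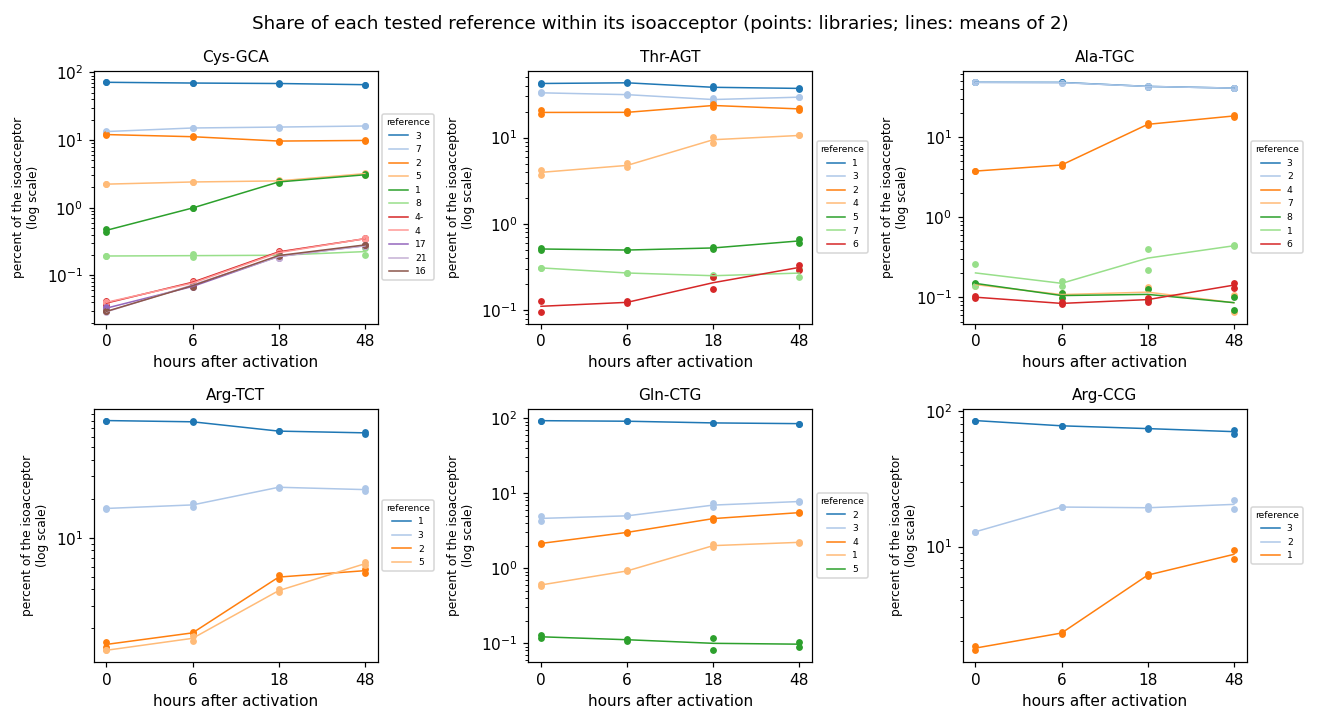
Percent of the isoacceptor (y axis, log scale) held by each tested reference at 0, 6, 18 and 48 h after activation (x axis, not to scale in time), for the 6 isoacceptors with the lowest p for a change in mix; points are libraries, lines the means of 2. Leading references decline, as Arg-TCT-1 from 80.4% and 80.2% to 65.6% and 63.4%, while several minor ones climb, as Ala-TGC-4 from 3.72% and 3.79% to 17.9% and 18.6%.

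The references with the highest fold changes and at least 100 RPM on average were all minor ones. Beside Cys-GCA-1, Ala-TGC-4, Gln-CTG-1, Ser-CGA-3 and Arg-CCG-1 they were Ala-AGC-3 (33.7 and 35.4 RPM against 325 and 302 RPM, log2 fold change 3.18, SE 0.26), Phe-GAA-3 (117 and 129 against 601 and 680 RPM, 2.38) and Gly-GCC-1 (394 and 459 against 2219 and 2174 RPM, 2.36). All 8 were also called higher on the tRNA scale, by 1.91 to 2.73. The other direction was rare among tRNAs in RPM. Of 168 tRNA references tested, 5 were called lower: SeC-TCA-1, Arg-TCG-1, Arg-TCT-1, Trp-CCA-2 and Ala-CGC-2, and apart from SeC-TCA-1 each was the leading reference of its isoacceptor.

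Groups made from the names differed little in their medians. By the base at position 34 of the anticodon, the median log2 fold change was 0.49 for A (9 isoacceptors), 0.37 for C (16), 0.47 for G (9) and 0.38 for T (15), beside 0.41 for all. On the tRNA scale the medians were 0.04, -0.08, 0.01 and -0.08. Isoacceptors of amino acids that a mouse must take up with food had a median of 0.43 (19 isoacceptors, 18 called higher). The others had a median of 0.41 (29, 21 called higher), beside 39 called higher of all 49. For methionine the first group holds the elongator Met-CAT alone. iMet-CAT, which was not called in RPM, was counted with the others. SeC-TCA, the single isoacceptor called lower, is in neither group. On the tRNA scale the medians of these groups were -0.02 and -0.04.

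The level of m1A at position 58, a methylation placed by the enzyme studied in the series, was deposited as a percent per isoacceptor for WT cells at 6 h. Across the 44 isoacceptors with such a level, it had a Pearson correlation of 0.08 and a Spearman correlation of 0.21 with the log2 fold change at 48 h. The number of RefSeq genes per anticodon, found for 46 isoacceptors, had a Pearson correlation of 0.71 with the log2 share both at rest and at 48 h, and of 0.05 with the fold change (Spearman 0.28). These are descriptions over isoacceptors, which share libraries and are not independent.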

How the data were processed

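The authors deposited, for each tRNA-seq library, read counts and RPM (reads scaled to the library total) on 242 references, per the file headers; BWA appears in the names of the deposited tables. The submitters' processing notes name mm10, Bowtie2 2.4.1, featureCounts 1.5.0-p3, HISAT2 2.0.5 and Trim Galore 0.6.6, without saying which served tRNA-seq. The m1A level per isoacceptor was deposited by the authors as a percent. RNA-seq tables and other assays were not used here.

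Groups followed the sample titles. Library totals were recovered from counts and RPM. Counts per reference, and summed per anticodon and per amino acid, were fitted with edgeR 4.0.16 in R 4.3.3 (glmQLFit, glmQLFTest), all 8 tRNA-seq libraries sharing 1 estimate of the spread, with a mean of at least 10 RPM over the 4 libraries compared; SE is the log2 fold change divided by the root of F. Changes in mix used diffSpliceDGE on these fits. Alternatives were the tRNA scale with and without TMM factors, DESeq2 1.42.0, limma 3.58.1 on log2(RPM + 1) and log2(RPM + 0.1), other filters (none, 100 RPM), reads on the references as library size, only the 4 libraries, a replicate block and each library left out. The fit of references and the test for a change in mix were also run on simulated counts with 1 set spread. These had no shift of the libraries toward tRNA and no reads shared between references, so they do not bear on either.

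Named were the 8 highest and 8 lowest called isoacceptors and references without overlap between the times (references of at least 100 RPM), the 6 most abundant isoacceptors, initiator methionine, selenocysteine, called amino acids, the 6 isoacceptors and 4 amino acids with the lowest p for a change in mix, and every non-tRNA reference; leading and minor references, isoacceptors called on the tRNA scale and those named beside their counts were added after their values were seen. Members and lists were chosen with earlier results of these data known. RefSeq gene numbers come from the GRCm38.p6 annotation. Intervals and tests do not cover sequence sharing between references.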

Additional observations from a re-analysis of the deposited data

How the results depend on the processing

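The library scale decides the direction of many tRNAs. Of 114 named results, 48 kept their direction and call under every alternative in which they were tested, and 34 turned under at least 1. With the tRNA scale, tRNA reads without TMM factors and DESeq2 set aside, 89 kept both. Results that a filter removed, and amino acids under the filters, were judged on the remaining alternatives. The counts of references were 65 higher and 47 lower on the tRNA scale, 71 and 45 with tRNA reads as library size and no TMM factors, and 57 and 64 under DESeq2, whose size factors follow the median reference. For isoacceptors the called were 18 (9 higher, 9 lower), 17 (11 and 6) and 18 (11 and 7) in the same order, and limma called 2 lower with either pseudocount. For amino acids they were 7 (2 higher, 5 lower), 9 (4 and 5) and 9 (4 and 5). Changes in mix of anticodons were called in 3 amino acids without a filter, in 2 (Arg and Gly) at a minimum of 100 RPM, and in 1 to 2 with a library left out; the cause was not tested. The tRNA share differed by 20.5 to 23.6 percentage points with a library left out.

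The replicate numbers are shared names with no batch in the labels, and the deviations of same-numbered libraries at 0 h and 48 h had a correlation of -0.01 across isoacceptors. With the replicate block, 122 references were higher and 25 lower, isoacceptors and amino acids gave the same counts as without it, 35 isoacceptors changed their mix of references and 3 amino acids (Arg, Gly and Ser) their mix of anticodons.

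Over all tested, 23 of 49 isoacceptors and 9 of 22 amino acids were positive in RPM and negative on the tRNA scale; the values that follow are those of results named by the rule. Among the isoacceptors named by the rule, those that turned on the tRNA scale were Arg-TCG -0.23, Gly-CCC -0.22, Lys-TTT -0.21, Leu-TAA -0.18, Leu-AAG -0.18, Thr-TGT -0.16, Ala-CGC -0.12, Glu-CTC -0.33, Cys-GCA -0.26, Pro-TGG -0.039, Asp-GTC -0.042, Arg-ACG -0.062, Arg-CCG -0.31 and Arg-CCT -0.078. Among the amino acids called in RPM, those that turned on the tRNA scale were Arg -0.21, Asp -0.042, Lys -0.13, Met -0.025, Phe -0.11 and Pro -0.033. Among the references named by the rule, those that turned on the tRNA scale were Cys-GCA-3 -0.37, Cys-GCA-8 -0.063, Thr-AGT-1 -0.074, Thr-AGT-3 -0.051, Thr-AGT-7 -0.085, Ala-TGC-2 -0.13, Ala-TGC-3 -0.13, Arg-TCT-3 -0.024 and Gln-CTG-5 -0.029. Among the isoacceptors named by the rule, those that turned with tRNA reads as library size and no TMM factors were Arg-TCG -0.19, Gly-CCC -0.18, Lys-TTT -0.17, Leu-TAA -0.14, Leu-AAG -0.14, Thr-TGT -0.13, Ala-CGC -0.081, Glu-CTC -0.29, Cys-GCA -0.22, Arg-ACG -0.021, Arg-CCG -0.26 and Arg-CCT -0.038. Among the amino acids called in RPM, those that turned with tRNA reads as library size and no TMM factors were Arg -0.17, Lys -0.090 and Phe -0.075. Among the references named by the rule, those that turned with tRNA reads as library size and no TMM factors were Cys-GCA-3 -0.34, Cys-GCA-8 -0.024, Thr-AGT-1 -0.031, Thr-AGT-3 -0.0093, Thr-AGT-7 -0.041, Ala-TGC-2 -0.095 and Ala-TGC-3 -0.094. Among the isoacceptors named by the rule, those that turned under DESeq2 were Arg-TCG -0.21, Gly-CCC -0.21, Lys-TTT -0.19, Leu-TAA -0.16, Leu-AAG -0.16, Thr-TGT -0.15, Ala-CGC -0.10, Glu-CTC -0.32, Cys-GCA -0.24, Pro-TGG -0.022, Asp-GTC -0.025, Arg-ACG -0.046, Arg-CCG -0.29 and Arg-CCT -0.062. Among the amino acids called in RPM, those that turned under DESeq2 were Arg -0.20, Asp -0.031, Lys -0.12, Met -0.016, Phe -0.11 and Pro -0.023. Among the references named by the rule, those that turned under DESeq2 were Cys-GCA-3 -0.48, Cys-GCA-7 -0.089, Cys-GCA-8 -0.17, Thr-AGT-1 -0.18, Thr-AGT-3 -0.16, Thr-AGT-7 -0.20, Ala-TGC-2 -0.24, Ala-TGC-3 -0.24, Arg-TCT-3 -0.14 and Gln-CTG-5 -0.14.

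Leaving out 1 library in turn also reversed 7 uncalled values, whose ranges were -0.097 to 0.38 for Glu-CTC, -0.19 to 0.074 for iMet-CAT, -0.25 to 0.20 for Gly-ACC, -0.024 to 0.38 for Cys-GCA, -0.14 to 0.27 for Cys-GCA-3, -0.30 to 0.079 for Cys-GCA-2 and -0.53 to 0.065 for Ala-TGC-7. With 1 library left at a time, that library is assumed to vary like the other times.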
